A study of Homo sapiens with 12 samples.

Results

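Of the 58735 genes counted, 10 genes of the pathway by which macrophages sense microbial products were followed across 4 groups of tumor-associated macrophages (TAMs). They were taken from the count table by their symbols: CD14, LY96, TLR1, TLR2, TLR4, TLR5, TLR6, TLR7, TLR8 and MYD88. The TAMs were THP-1 cells, a human acute monocytic leukemia line, that PMA had turned into macrophages, kept on the other side of a Transwell membrane from AsPC-1 pancreatic cancer cells. In the control group the AsPC-1 cells carried an empty vector, and in the OE-MMP28 group they overexpressed MMP28, a matrix metalloproteinase. The other 2 groups were OE-MMP28 cocultures with an antibody against IL-8 or against VEGFA, and they addressed how these cytokines act on TAM polarization. Each group held 3 libraries. All 12 came from a single cell line, and no group is labelled as having received a control antibody. The p-values rest on the spread between libraries of the same group, estimated jointly over the 4 groups. The study's methods speak of triplicate samples for sequencing and, for its cell experiments in general, of independent repeats, without saying whether the triplicates were such repeats, so that this spread may be technical.

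CD14 is a coreceptor that hands lipopolysaccharide to the complex of TLR4 and MD-2, the protein encoded by LY96. TLR2 pairs with TLR1 or TLR6 to sense bacterial lipopeptides, TLR5 senses flagellin, and TLR7 and TLR8 sense RNA inside endosomes. MYD88 is the adaptor through which each of these Toll-like receptors signals to NF-kB and to the induction of inflammatory cytokines. In monocytes and macrophages CD14 is a standard surface marker.

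In OE-MMP28 TAMs the transcripts of the lipopolysaccharide-binding partners rose and that of the shared adaptor fell, whereas none of the 6 receptors that could be tested passed the test. LY96 was 2.02-fold and CD14 1.74-fold higher than in control, and MYD88 was 2.11-fold lower. In edgeR's quasi-likelihood test, neither antibody gave a difference from OE-MMP28 alone that passed the adjusted threshold for any of these genes. Of all 16046 genes, 0.00% passed under anti-IL-8 and 0.343% under anti-VEGFA, so that this absence is not particular to these genes. DESeq2, another test, called TLR4 under anti-IL-8 (adjusted p = 0.039), beside 2391 genes in all. Without OE-MMP28 replicate 3, edgeR called CD14, TLR4 and TLR7 under anti-IL-8, beside 4125 genes in all. Against control, MYD88 was lower and CD14 higher in both antibody groups, and TLR1 was lower in both. All values are of RNA from a whole culture, in which fewer cells of a type and less RNA per cell cannot be told apart.

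Library totals lay between 15852346 and 18701195 counts. Levels are given as CPM, counts divided by a TMM-scaled library total and brought to a common scale by a fixed factor, and 3 counts correspond to 0.160 to 0.195 CPM. Mitochondrial genes took 6.92% to 12.3% of the counts in 11 libraries and 17.8% in anti-VEGFA replicate 2. Macrophage genes were abundant, with ITGAM (CD11b) at 6266 to 10445 counts and CSF1R, the M-CSF receptor, at 1668 to 3249 counts per library. The macrophage markers LYZ and CD68 were low, at 76 to 182 and 0 to 5 counts. Of 10 epithelial markers, which the AsPC-1 cells would bring, the sum was 2.64 to 5.86 CPM, EPCAM had 0 counts in each library, and KRT8, KRT18 and KRT19 had at most 7. MUC1, the most abundant of them at 28 to 65 counts, was lower in OE-MMP28 than in control (1.80 against 3.62 CPM, adjusted p = 0.034).

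The regulatory sequence next to the start site is shown for the 2 genes whose calls recurred in each comparison with control, CD14 and MYD88, and for TLR8, the only other gene of the 7 with an entry whose sequence held the interferon-stimulated response element core. Each is the RefSeq promoter on GRCh38.p14, from 250 bases before to 50 bases after the annotated start, written 5′ to 3′ on the strand of the gene. The windows are chr5:140633126-140633425 on the minus strand for CD14, chr3:38138411-38138710 on the plus strand for MYD88, and chrX:12906370-12906669 on the plus strand for TLR8. The start sites of RefSeq and GENCODE differ, and the CD14 window lies wholly and the MYD88 window largely within the GENCODE bounds of its gene. Capitals mark matches, on either strand, to 4 motifs: GAAANNGAA (the core of the interferon-stimulated response element), GAGGAA (the PU.1 core), TGANTCA (AP-1) and GGGCGG (Sp1).
CD14 promoter: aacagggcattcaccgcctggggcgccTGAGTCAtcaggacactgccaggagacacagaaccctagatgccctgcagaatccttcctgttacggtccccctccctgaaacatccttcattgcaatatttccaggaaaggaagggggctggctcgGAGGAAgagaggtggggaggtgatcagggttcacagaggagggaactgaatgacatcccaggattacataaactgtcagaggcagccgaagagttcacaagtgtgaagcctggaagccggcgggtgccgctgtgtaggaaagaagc
MYD88 promoter: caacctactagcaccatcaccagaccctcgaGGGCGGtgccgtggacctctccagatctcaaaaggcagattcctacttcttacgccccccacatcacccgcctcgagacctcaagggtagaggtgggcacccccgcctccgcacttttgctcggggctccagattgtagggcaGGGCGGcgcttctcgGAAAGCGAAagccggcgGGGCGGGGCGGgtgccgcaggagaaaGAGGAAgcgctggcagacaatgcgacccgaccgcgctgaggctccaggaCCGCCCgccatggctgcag
TLR8 promoter: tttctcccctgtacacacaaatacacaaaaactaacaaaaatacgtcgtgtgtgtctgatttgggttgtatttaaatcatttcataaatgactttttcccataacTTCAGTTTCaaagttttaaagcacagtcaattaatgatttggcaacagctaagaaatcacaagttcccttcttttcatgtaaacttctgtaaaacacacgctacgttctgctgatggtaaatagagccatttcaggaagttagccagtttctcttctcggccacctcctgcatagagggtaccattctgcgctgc

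The MYD88 window held the interferon response core at position -61 from the start, a PU.1 core at -18 and 5 Sp1 cores, of which 2 overlap, and its GC content was 65.7%. The CD14 window held an AP-1 match at -223 and a PU.1 core at -96, with no Sp1 core and a GC content of 55.7%. The TLR8 window held the interferon response core at -145 and none of the other motifs. The TLR4 window held 4 PU.1 cores and 1 Sp1 core, TLR6 held 1 PU.1 core, and TLR2 and TLR5 held 2 Sp1 cores each. The interferon response core was present in 8.11% of 35116 RefSeq promoters of the same length, the PU.1 core in 27.9%, AP-1 in 7.71% and the Sp1 core in 45%. These matches describe letters in a window, and no binding was measured.

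CD14 (chromosome 5, 140631728 to 140633701 on GRCh38, minus strand) was the most abundant of these transcripts. In control, its level was 821, 650 and 784 CPM in replicates 1, 2 and 3. In OE-MMP28 it was 1226, 933 and 1771 CPM, so that each library lay above each control library and the highest was OE-MMP28 replicate 3. The group means were 1310 ± 425 CPM (SD, n = 3) in OE-MMP28 and 752 ± 89.6 CPM (SD, n = 3) in control. The log2 fold change was 0.80 ± 0.19 (SE), with an adjusted p of 0.027 in edgeR's quasi-likelihood test. The call was lost without control replicate 1, 2 or 3 (adjusted p = 0.069, 0.17 and 0.084) and without OE-MMP28 replicate 1 (adjusted p = 0.059), while the log2 fold change was 0.87, 0.71, 0.83 and 0.85 and the genes called in all went from 507 to between 295 and 341. Without OE-MMP28 replicate 3 the log2 fold change was 0.53 (adjusted p = 0.11), and on the authors' FPKM it was 0.76 (adjusted p = 0.11).

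LY96 (chromosome 8, 73991352 to 74029087, plus strand), which encodes the MD-2 subunit that binds lipopolysaccharide next to TLR4, was at 15.9, 16.1 and 17.8 CPM in control and at 28.0, 32.6 and 40.3 CPM in OE-MMP28. The groups did not overlap. The means were 16.6 ± 1.01 and 33.6 ± 6.18 CPM (SD, n = 3), and the log2 fold change was 1.01 ± 0.17 (SE; adjusted p = 0.0011). LY96 passed in each of 22 alternative settings, which included leaving out each library in turn.

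MYD88 (chromosome 3, 38138478 to 38143022, plus strand) was at 136, 147 and 118 CPM in control. In OE-MMP28 it was at 64.1, 60.5 and 65.0 CPM, a narrow range far below the control libraries. Its mean went from 134 ± 14.3 to 63.2 ± 2.42 CPM (SD, n = 3), a log2 fold change of -1.08 ± 0.12 (SE; adjusted p = 1.2e-05), and it too passed in each of the 22 alternative settings. A list of 25 interferon-stimulated genes moved with it, chosen with earlier results of these data known: its summed level was 5233 to 7314 CPM in control and 1006 to 1305 CPM in OE-MMP28, and 24 of 24 tested genes fell (median log2 -3.21). Whether the change of MYD88 has a part in that of these genes, or the reverse, was not tested.

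**Figure D1:**
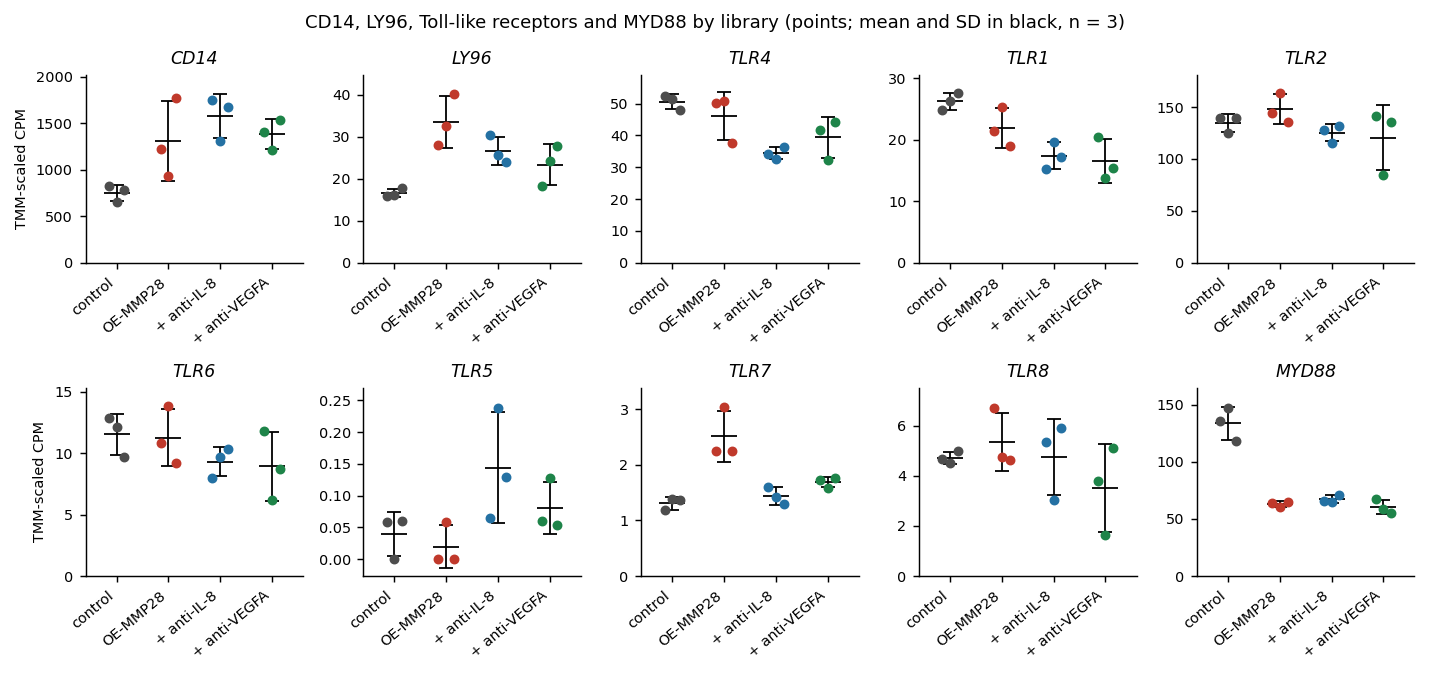
Level of each gene (y axis, TMM-scaled CPM on a linear scale of its own per gene that includes 0) in the 4 groups (x axis). Points are libraries, the black bar is the mean and the whiskers the SD (n = 3). The control libraries of MYD88 lie at 118 to 147 CPM and the other 9 libraries at 55.2 to 71.4 CPM, and the control libraries of CD14 lie below those of each other group.

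In all, 3 of the 9 genes that passed the filter on low counts were called between OE-MMP28 and control at an adjusted p of 0.05 (2 higher, 1 lower), against 3.16% of the 16046 genes tested. The libraries of 4 of the 9 did not overlap between these groups, against 21.3% of all genes, the fourth being TLR7. The endosomal receptor TLR7 was at 1.18, 1.39 and 1.36 CPM in control (20, 24 and 23 counts) and at 2.25, 3.04 and 2.25 CPM in OE-MMP28 (41, 52 and 36 counts). Its log2 fold change of 0.88 ± 0.25 (SE) missed the threshold (adjusted p = 0.066), though it passed when genes needed at least 10 counts in every library (adjusted p = 0.039) and on FPKM with a pseudocount of 1 (0.025) or 0.1 (0.040). With a library left out, its adjusted p lay between 0.058 and 0.25. TLR8, its neighbour on the X chromosome, was at 4.51 to 4.97 CPM in control and 4.62 to 6.71 CPM in OE-MMP28, a log2 fold change of 0.18 with a 95% interval from -0.44 to 0.81.

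The lipopolysaccharide receptor TLR4 (chromosome 9, 117704175 to 117724730, plus strand) was at 52.4, 51.3 and 48.0 CPM in control and at 50.1, 50.8 and 37.5 CPM in OE-MMP28. The groups overlapped, and the log2 fold change was -0.13 (95% interval -0.43 to 0.17; adjusted p = 0.74). TLR2 was at 125 to 140 CPM in control and 136 to 164 CPM in OE-MMP28, with a log2 fold change of 0.14 (95% interval -0.20 to 0.47). Its partners TLR1 and TLR6 had log2 fold changes of -0.26 (95% interval -0.60 to 0.08) and -0.03 (95% interval -0.47 to 0.41). TLR5 had 0 or 1 count in each control and OE-MMP28 library and at most 4 counts elsewhere, which is below what could be tested at this depth.

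TLR1 (chromosome 4, 38790677 to 38856817) and TLR6 (chromosome 4, 38823715 to 38856817) lie on the same strand and share 57 exonic bases, 1.26% of the exons of TLR1. Of the 4807 windows of 100 bases in the transcripts of TLR1, 119 also occur in those of TLR6. Reads from these stretches could be counted for either gene or dropped, so that the values of both carry this uncertainty. TLR4 shares 558 exonic bases with AL160272.2, which had 0 or 1 count per library.

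Because the file's FPKM values are per gene length, they also order the genes by level. In control the means ran from CD14 at 393 ± 46.9 FPKM (SD, n = 3) through MYD88 at 33.1 ± 3.67, LY96 at 27.0 ± 1.49 and TLR2 at 25.5 ± 1.60 to TLR1 at 5.71, TLR4 at 3.76, TLR6 at 1.89, TLR8 at 1.07 and TLR7 at 0.248 FPKM. LY96 and TLR2 overlapped between libraries there and no other neighbours did. In OE-MMP28 the order changed: LY96 (54.7 ± 9.91 FPKM; SD, n = 3) and TLR2 (28.0 ± 2.74) both stood above MYD88 (15.7 ± 0.595). In both antibody groups the order was the same as in OE-MMP28, though TLR2 and MYD88, as well as TLR1 and TLR4, overlapped with anti-VEGFA. TLR6 and TLR8 overlapped in all groups but control. The gene length behind these values counts the exons of every annotated transcript, which gives TLR4 a length of 13272 bases and LY96 607 bases.

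Within a library, the FPKM of LY96 over that of TLR4 relates the partner to its receptor. This ratio was 6.65 to 8.09 in control and 12.2 to 23.5 in OE-MMP28, with means of 7.20 ± 0.777 and 16.6 ± 6.04 (SD, n = 3). It was 17.0 ± 2.50 under anti-IL-8 and 13.2 ± 3.45 under anti-VEGFA. The ratio of MYD88 to TLR2 was 1.31 ± 0.217 in control, 0.563 ± 0.0734 in OE-MMP28, 0.705 ± 0.0344 under anti-IL-8 and 0.688 ± 0.198 under anti-VEGFA. These ratios are descriptions and were not tested.

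**Figure D2:**
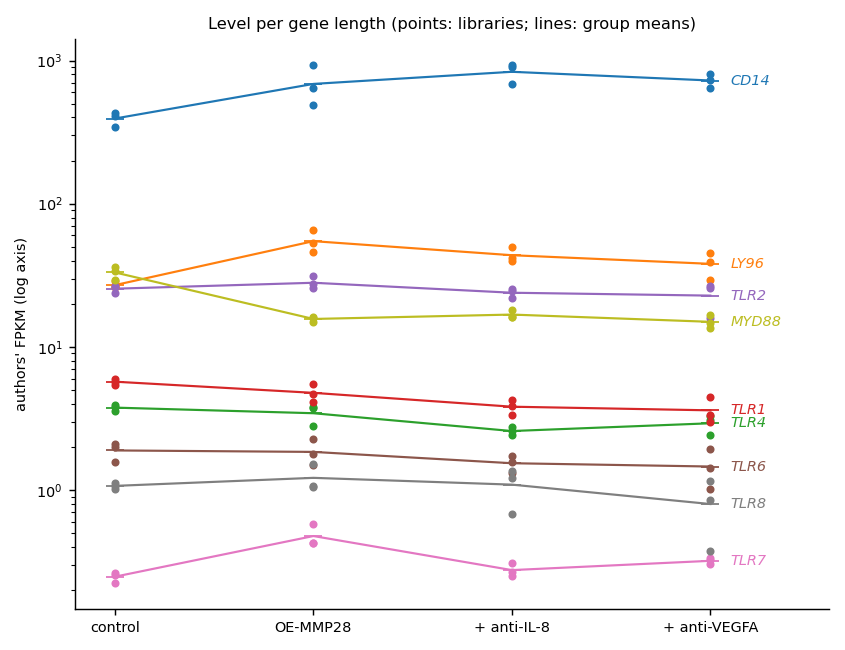
Authors' FPKM (y axis, log scale) of 9 genes in the 4 groups (x axis), with points for libraries and lines joining group means. TLR5, at 0 to 4 counts per library, is not drawn. MYD88 lies above LY96 and TLR2 in control (33.1 against 27.0 and 25.5 FPKM) and below both in OE-MMP28 (15.7 against 54.7 and 28.0 FPKM).

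The effect of anti-IL-8 on these genes was read against OE-MMP28 alone. None of the 9 tested genes was called by edgeR's quasi-likelihood test in this comparison, where 0.00% of all 16046 genes were. At an unadjusted p of 0.05, 2 of the 9 passed (TLR4 and TLR7), beside 4700 of all genes (29.3%). DESeq2 called 1 (TLR4, adjusted p = 0.039), beside 2391 genes in all, and limma voom called 0. TLR4 was at 34.3, 32.5 and 36.4 CPM with anti-IL-8, below each OE-MMP28 library, with a log2 fold change of -0.42 ± 0.14 (SE; adjusted p = 0.080). TLR7 was at 1.61, 1.42 and 1.30 CPM with anti-IL-8, below the OE-MMP28 libraries and near those of control, with a log2 fold change of -0.75 ± 0.25 (SE; adjusted p = 0.075). The libraries of TLR2 and MYD88 did not overlap either, which made 4 of 9 genes against 29.0% of all genes. Without OE-MMP28 replicate 3, whose CD14 was the highest and whose TLR4 was the lowest of its group, the count over all genes went from 0 to 4125, and 3 of the 9 were among them: CD14 (log2 0.56, adjusted p = 0.024), TLR4 (log2 -0.54, adjusted p = 0.011) and TLR7 (log2 -0.81, adjusted p = 0.042).

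CD14 with anti-IL-8 was at 1752, 1307 and 1678 CPM, which overlapped OE-MMP28 (log2 0.27, 95% interval -0.14 to 0.68). LY96 was at 30.3, 25.7 and 23.9 CPM and also overlapped (log2 -0.33, 95% interval -0.68 to 0.01). MYD88, at 65.3, 65.2 and 71.4 CPM, had a log2 fold change of 0.09 (95% interval -0.16 to 0.35), and each of its libraries lay below the lowest control library.

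With anti-VEGFA against OE-MMP28 alone, edgeR's test called none of the 9 genes, against 0.343% of all genes, and DESeq2 and limma voom called none either. At an unadjusted p of 0.05, 3 passed (LY96, TLR1 and TLR7), beside 3019 of all genes (18.8%). LY96 was at 18.2, 24.1 and 27.7 CPM, each below the lowest OE-MMP28 library, with a log2 fold change of -0.52 ± 0.17 (SE; adjusted p = 0.13). TLR7, at 1.72, 1.59 and 1.76 CPM, did not overlap OE-MMP28 either (log2 -0.54, adjusted p = 0.24), and these 2 of 9 genes compare with 18.1% of all genes. CD14 was at 1403, 1216 and 1539 CPM, a log2 fold change of 0.08 (95% interval -0.32 to 0.49). MYD88 was at 67.5, 58.7 and 55.2 CPM, a log2 fold change of -0.06 (95% interval -0.32 to 0.19).

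Several receptors were low together in a library of the anti-VEGFA group. Replicate 2, with the mitochondrial share of 17.8%, was the lowest of its group for CD14 and for each of the 6 tested receptors: TLR2 was at 84.2 CPM there against 142 and 136 CPM, TLR8 at 1.65 against 3.80 and 5.12 CPM, and TLR6 at 6.22 against 11.8 and 8.75 CPM. OE-MMP28 replicate 3 was also the lowest of its group for each of the 6, with TLR4 at 37.5 against 50.1 and 50.8 CPM. TLR7 and TLR8 differed little from the next library there (2.247 against 2.254 CPM, and 4.62 against 4.74 CPM). That library had the highest mitochondrial share of its group (12.3%), and its CD14 and LY96 were the highest. The part of these shares in those levels was not tested. Without anti-VEGFA replicate 2, the log2 fold change of TLR2 against control went from -0.16 to 0.06 and that of TLR8 from -0.39 to -0.06. Neither of these passed the test.

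Compared with control, the anti-IL-8 cocultures differed in 5 of the 9 genes (2 higher, 3 lower), against 20.7% of all genes, and the same 5 were those whose libraries did not overlap, against 47.8% of all genes. CD14 rose by 1.07 ± 0.20 (log2, SE; adjusted p = 0.0017) and LY96 by 0.68 ± 0.17 (adjusted p = 0.011). MYD88 fell by 0.99 ± 0.12 on the log2 scale (adjusted p = 3.3e-05). TLR4 was 34.4 ± 1.95 against 50.6 ± 2.28 CPM (SD, n = 3), a log2 fold change of -0.55 ± 0.14 (SE; adjusted p = 0.014). TLR1 was at 15.3, 19.7 and 17.3 CPM against 24.9, 26.2 and 27.6 CPM in control, a log2 fold change of -0.59 ± 0.16 (SE; adjusted p = 0.019). Without control replicate 2 or without anti-IL-8 replicate 1, only CD14 and MYD88 of the 9 stayed called, beside 1340 and 1312 genes in all, with adjusted p between 0.052 and 0.12 for LY96, TLR4 and TLR1. TLR4 also lost its call without control replicate 1 (adjusted p = 0.052), and TLR1 without control replicate 3 (0.073) or anti-IL-8 replicate 3 (0.070).

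The anti-VEGFA cocultures differed from control in 3 of the 9 genes (1 higher, 2 lower), against 11.0% of all genes. CD14 was higher by 0.88 ± 0.19 (log2, SE; adjusted p = 0.0079), MYD88 had a log2 fold change of -1.14 ± 0.12 (adjusted p = 6.1e-06), and TLR1, at 20.5, 13.7 and 15.5 CPM, had a log2 fold change of -0.66 ± 0.16 (adjusted p = 0.015). LY96 (log2 0.49 ± 0.17, SE; adjusted p = 0.069) and TLR4 (log2 -0.36, adjusted p = 0.11) missed the threshold. The libraries of 6 genes did not overlap, against 34.3% of all genes. Without control replicate 2, whose CD14 was the lowest of its group, MYD88 alone of the 9 was called, beside 662 genes in all, and the adjusted p was 0.061 for CD14 and 0.059 for TLR1. TLR1 also lost its call without control replicate 3 (adjusted p = 0.058) and without anti-VEGFA replicate 2 or 3 (0.062 and 0.061), and LY96 gained a call without anti-VEGFA replicate 1 (0.022) or OE-MMP28 replicate 3 (0.037). These comparisons share the control libraries with that of OE-MMP28 and are not independent of it.

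Between the 2 antibodies none of the 9 genes was called, against 0.199% of all genes. None passed an unadjusted p of 0.05, and DESeq2 and limma voom called none. The widest 95% interval was that of TLR8, from -1.05 to 0.24 on the log2 scale, and the narrowest that of MYD88, from -0.41 to 0.10.

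**Figure D3:**
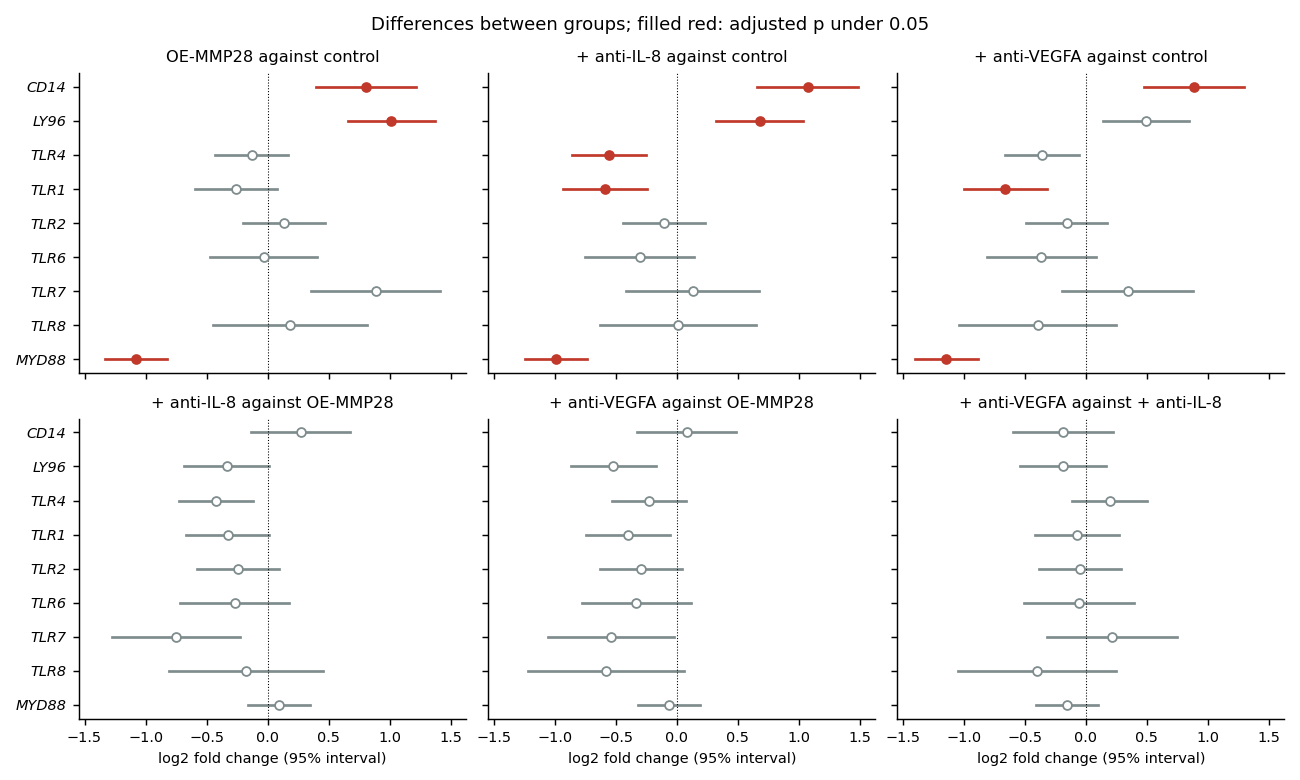
Log2 fold change (x axis) with its 95% interval for the 9 tested genes (y axis) in the 6 comparisons, filled red where the adjusted p is under 0.05. In the 3 comparisons with control (top) MYD88 lies between -1.14 and -0.99 and CD14 between 0.80 and 1.07, and no gene is filled in the 3 comparisons among OE-MMP28 groups (bottom).

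Granule genes of monocyte precursors (MPO, ELANE, AZU1, PRTN3 and CTSG), which immature myeloid cells express, were read beside CD14. Their summed level was 60.3 to 74.7 CPM in control, 47.9 to 113 CPM in OE-MMP28, 94.1 to 115 CPM with anti-IL-8 and 81.0 to 107 CPM with anti-VEGFA. Of 4 tested, 3 were called higher than control with each antibody, against 20.7% of all genes under anti-IL-8 and 11.0% under anti-VEGFA, where limma voom called 2. In OE-MMP28 none was called by edgeR, DESeq2 or limma voom, and 1 passed an unadjusted p of 0.05. Their part in the differences of CD14 was not tested.

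The rest of the pathway was given by 72 genes in 7 lists chosen with earlier results known, of which 65 were tested. Between OE-MMP28 and control, 7 of them were called (1 higher, 6 lower), which is 10.8%, beside 3.16% of all genes. Their median log2 fold change was -0.02, beside 0.02 over all genes. UNC93B1, which carries endosomal Toll-like receptors out of the endoplasmic reticulum, fell from 122 ± 7.40 to 68.0 ± 18.1 CPM (SD, n = 3; log2 -0.85, adjusted p = 0.0030). Of 9 transcription factors 2 fell, IRF7, which drives type I interferon genes (log2 -1.65, adjusted p = 2.2e-05), and IRF1 (log2 -0.79, adjusted p = 0.0045). Of 12 inhibitors 2 fell, ATF3, a repressor of cytokine genes (log2 -0.51, adjusted p = 0.015), and the phosphatase gene INPP5D (log2 -0.52, adjusted p = 0.049).

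None of the 17 tested adaptors and kinases of the MYD88 and TRIF routes, TRIF itself included, was called in that comparison by edgeR, DESeq2 or limma voom. At an unadjusted p of 0.05, 1 passed, beside 14.5% of all genes. IRAK1, the kinase recruited by MYD88, was at 260 CPM in OE-MMP28 and 236 CPM in control (log2 0.14, adjusted p = 0.73). Among 11 tested target genes, the chemokine CCL4 rose (log2 0.79, adjusted p = 0.039) and the interferon-inducible chemokine CXCL10 fell from 51.8 ± 10.6 to 0.661 ± 0.622 CPM (SD, n = 3; adjusted p = 1.3e-09). The chemokine gene CCL3 had a log2 fold change of 0.72 (adjusted p = 0.061), and the NF-kB targets IL1B, IL6, CXCL8, CCL2 and TNF had values between 0.02 and 0.29 with adjusted p of at least 0.49. The other targets, CCL5, IL10 and the cyclooxygenase-2 gene PTGS2, had values of -0.08, -0.45 and -0.29 with adjusted p of at least 0.39. Over 22 alternatives, UNC93B1, IRF7 and IRF1 passed in all, CXCL10 in each of the 21 that tested it, ATF3 in 19, CCL4 in 12 and INPP5D in 7, and the calls of ATF3, CCL4 and INPP5D were lost without control replicate 1 (adjusted p = 0.096, 0.13 and 0.17), without control replicate 2 (0.10, 0.22 and 0.27) or without OE-MMP28 replicate 1 (0.069, 0.14 and 0.11). CCL4 and INPP5D also lost theirs without control replicate 3 (0.070 and 0.053), without OE-MMP28 replicate 3 (0.11 and 0.068) and without each anti-IL-8 library (0.050 to 0.077), and INPP5D without OE-MMP28 replicate 2 (0.11) and anti-VEGFA replicate 3 (0.054).

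Against OE-MMP28 alone, none of the 65 pathway genes was called by edgeR or limma voom with either antibody. At an unadjusted p of 0.05, 29 passed under anti-IL-8 and 16 under anti-VEGFA, beside 29.3% and 18.8% of all genes. DESeq2 called 17 and 3, beside 2391 and 448 genes in all. Against control, 24 (36.9%) were called under anti-IL-8, of which 8 were higher, beside 20.7% of all genes. Under anti-VEGFA 16 (24.6%) were called, of which 6 were higher, beside 11.0% of all genes. With anti-IL-8 these included 5 of 10 receptor partners (1 higher, 4 lower). Among them HSP90B1 (gp96), the chaperone that folds Toll-like receptors, was lower (log2 -0.65, adjusted p = 0.0044). CNPY3 was the higher one (log2 0.62, adjusted p = 0.038), a call kept in 13 of 22 alternatives. Of 17 adaptors and kinases 6 were called (1 higher, 5 lower). IRAK1 was the higher one (log2 0.58, adjusted p = 0.015), and the TAK1 partner TAB2 was among the lower ones (log2 -0.65, adjusted p = 0.0066). The call of IRAK1 was lost without control replicate 2 or 3 (adjusted p = 0.051 and 0.086) or anti-IL-8 replicate 3 (0.067), and that of TAB2 without anti-IL-8 replicate 1 (0.061). With anti-VEGFA edgeR and limma voom called none of the 17 adaptors and kinases, 4 passed an unadjusted p of 0.05, and DESeq2 called 2. The inhibitors of the pathway went both ways, with 1 of 12 called higher and 3 lower under each antibody. The deubiquitinase CYLD and the phosphatase gene DUSP1 were lower under anti-IL-8 (log2 -0.81 and -0.68) and under anti-VEGFA (log2 -0.63 and -1.04). Higher were TOLLIP under anti-IL-8 (log2 0.57, adjusted p = 0.0085) and NFKBIA under anti-VEGFA (log2 0.68, adjusted p = 0.0048). TOLLIP lost its call without control replicate 3 (adjusted p = 0.052). Of the 11 target genes, 2 were called higher and 2 lower than control under anti-IL-8, and 3 higher and 2 lower under anti-VEGFA. CCL3 was higher under anti-IL-8 (log2 0.98, adjusted p = 0.0038) and under anti-VEGFA (log2 0.87, adjusted p = 0.011), the latter not without control replicate 1 or 2 (0.054 and 0.057). Lower were CXCL10 under both (log2 -5.77 and -5.22), PTGS2 under anti-IL-8 (log2 -1.25, adjusted p = 0.00028) and IL10 under anti-VEGFA (log2 -0.88, adjusted p = 0.024). The call of IL10 was kept in 17 of 22 alternatives. TNF was higher under anti-VEGFA (log2 0.69, adjusted p = 0.048), a call kept in 8 of 22 alternatives and lost with 9 of the 12 libraries left out in turn (adjusted p = 0.055 to 0.21). Of 9 transcription factors, 3 were called higher and 2 lower under anti-IL-8, and 1 higher and 2 lower under anti-VEGFA. NFKB2, a subunit of noncanonical NF-kB, was higher with both (log2 0.84 and 0.80). IRF7 (log2 -1.16 and -0.99) and IRF1 (log2 -0.66 and -0.78) were lower with both. TLR10, an orphan relative of TLR1, was at 3.17 ± 0.956 CPM with anti-VEGFA and 1.00 ± 0.396 CPM in control (SD, n = 3; log2 1.56, adjusted p = 0.0057). Between the antibodies 1 of the 65 genes differed (1.54%, beside 0.199% of all genes). It was PTGS2, which was at 240 ± 57.4 CPM with anti-VEGFA and 101 ± 15.5 CPM with anti-IL-8 (SD, n = 3; log2 1.26, adjusted p = 0.0065). In control it was at 240 ± 48.6 CPM and in OE-MMP28 at 196 ± 32.3 CPM (SD, n = 3). The call of PTGS2 between the antibodies was lost without anti-IL-8 replicate 1 or 3 (adjusted p = 0.093 and 0.080) or anti-VEGFA replicate 3 (0.054).

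**Figure D4:**
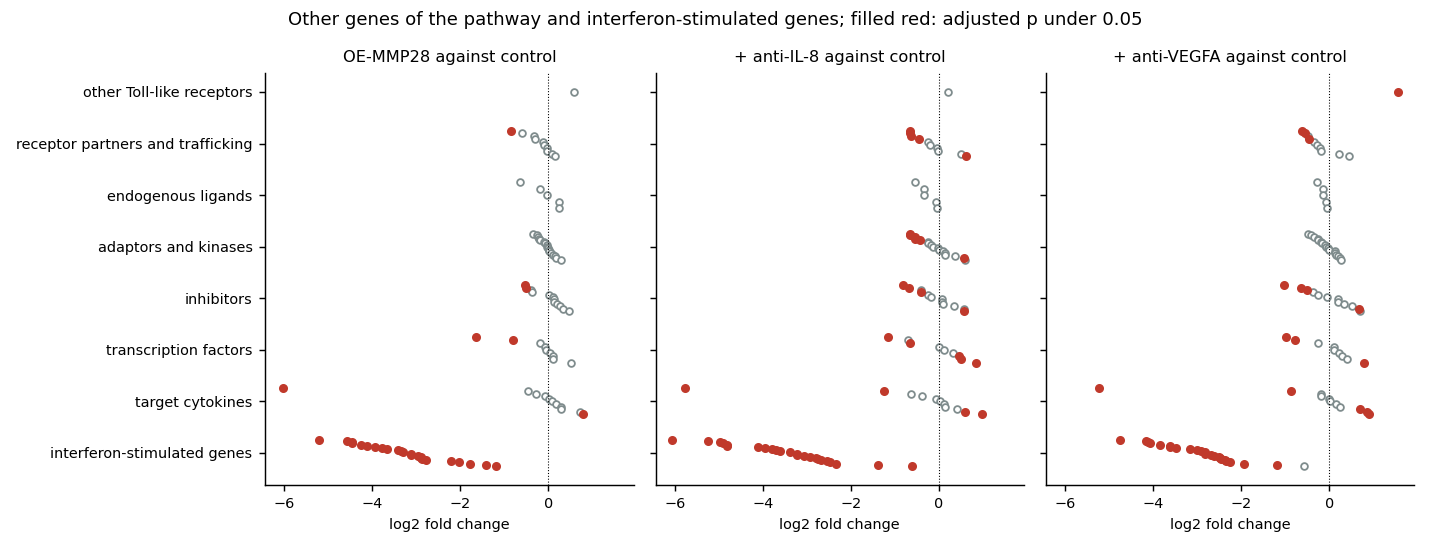
Log2 fold change against control (x axis) of each tested gene in the 7 pathway lists and the interferon-stimulated genes (y axis), filled red where the adjusted p is under 0.05. Adaptors and kinases have 0 filled points of 17 in OE-MMP28, 6 under anti-IL-8 and 0 under anti-VEGFA, and the interferon-stimulated genes lie to the left of 0 in all 3 panels.

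Genes with the most similar pattern over the 12 libraries were sought among 11378 genes with a mean of at least 50 counts, by Pearson's r of log2 CPM. For CD14 they were P3H1, a collagen prolyl hydroxylase gene (r = 0.98), and the lysosomal enzyme genes CTSA (r = 0.98) and NEU1 (r = 0.98). After subtraction of group means these stayed at r = 0.94 to 0.97, so that they followed CD14 within groups as well. For LY96 they were REEP5, whose protein shapes the endoplasmic reticulum (r = 0.94), the sterol synthesis gene MSMO1 (r = 0.92) and the glutathione transferase gene MGST1 (r = 0.92), and for MYD88 the ISG15-conjugating enzyme gene UBE2L6 (r = 0.99), ATF3 (r = 0.99) and the receptor kinase gene AXL (r = 0.98). After group means were subtracted, r was 0.93, 0.70 and 0.85 for those of LY96 and 0.89, 0.88 and 0.66 for those of MYD88. The libraries share cell line, groups and scaling, and these values are descriptions of the highest r among many genes.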

How the data were processed

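RNA from 12 TAM samples, 3 per group by their labels, was sequenced with a kit that does not mark strand. The authors aligned reads with HISAT2 2.0.5 and made the deposited counts per gene with featureCounts 1.5.0-p3, per the submitters' processing notes, and deposited FPKM values as well. Their own fold changes and p-values were not used here. Counting options were not given in the sources used here. Gene positions in the table match GENCODE 29 on GRCh38.

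Counts were analysed in R 4.3.3 with edgeR 4.0.16. The filterByExpr function kept 16046 genes, libraries were scaled by TMM, and a quasi-likelihood fit of 4 groups (prior count 2, common dispersion 0.0231) gave 6 comparisons, adjusted by Benjamini-Hochberg over all genes tested, with a threshold of 0.05. SE and 95% intervals come from this fit. Alternatives were DESeq2 1.42.0, limma 3.58.1 voom, FPKM with pseudocounts of 1 and 0.1, other scalings and filters, the replicate number as a block, an unadjusted p, and each library left out. The code was tested on simulated data.

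The 10 genes and the lists were chosen with earlier results of these data known. All 10 were named. From a pathway list, at most the 4 genes of smallest p past the threshold were named per comparison, or the genes of largest mean count where none passed, and the 3 genes of highest r for each gene called between OE-MMP28 and control. The NF-kB targets IL1B, IL6, CXCL8, CCL2 and TNF (and CCL3, CCL5, IL10 and PTGS2 where they missed the threshold), MUC1 and the other marker genes were named outside this rule, after their values were seen. Figures were drawn with matplotlib.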

Additional observations from a re-analysis of the deposited data

How the results depend on the processing

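Counts of genes called between OE-MMP28 and control ranged from 2 to 3 when a library was left out (295 to 641 genes in all). They were 4 at an unadjusted p (2332 genes in all) and 4 with at least 10 counts in every library (490). For anti-IL-8 against OE-MMP28 the 0 called became 1 with DESeq2 (2391 genes in all), 2 at an unadjusted p (4700) and 0 to 3 with a library left out (4125 in the fit that gave 3). For anti-VEGFA against OE-MMP28 it became 3 at an unadjusted p (3019 genes in all) and stayed 0 with a library left out. Against control, leaving out a library gave 2 to 5 with anti-IL-8 (1312 to 4309 genes in all). It gave 1 to 4 with anti-VEGFA (662 to 2582), where an unadjusted p gave 5 (4325 genes in all). The cause of these changes was not tested, though each such fit has fewer samples.

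The log2 fold change of TLR8 between anti-IL-8 and control, 0.0088, turned to -0.053 with limma voom, -0.072 with library totals, -0.00026 without a filter, -0.0054 with at least 10 counts in every library, -0.035 with the replicate block and -0.023 on FPKM with a pseudocount of 0.1. TLR2 between the antibodies turned to 0.0057 with library totals. With a library left out, ranges that crossed 0 were, against control, -0.20 to 0.0055 (TLR4), -0.20 to 0.10 (TLR6) and -0.010 to 0.28 (TLR8) in OE-MMP28, -0.16 to 0.25 (TLR8) with anti-IL-8 and -0.29 to 0.057 (TLR2) with anti-VEGFA. Against OE-MMP28 they were -0.35 to 0.069 (TLR8, anti-IL-8) and -0.11 to 0.36 (CD14, anti-VEGFA), and between the antibodies -0.25 to 0.022 (TLR1), -0.19 to 0.13 (TLR2) and -0.31 to 0.11 (TLR6). None of these passed the test in the main analysis. Other values for the 9 genes kept their direction.

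Same-numbered libraries did not deviate together more than others (r from -0.16 to 0.24 over 18 pairs, and from -0.32 to 0.34 over 36 other pairs). Of 12 libraries, 4 correlated best with their own number. With 3 libraries per group, these values cannot decide whether the numbers pair samples. The replicate block gave 3, 0, 0, 5, 3 and 0 called of the 9 genes, in the order of the report. Beside these it called 514, 795, 37, 3444, 1756 and 26 genes in all, where the 795 for anti-IL-8 against OE-MMP28 stood in place of 0. At this depth TLR5 (0 to 4 counts per library) could not be tested, and TLR7, at 20 to 52 counts, carries the counting error of such numbers.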
